A study of Mus musculus with 12 samples.

Results

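The genes described here are 35 mouse genes for RNA-binding splicing regulators, of 27095 genes counted in all: 19 hnRNP genes (the Hnrnp symbols), 11 SR genes (the Srsf symbols), 2 Tra2 genes and 3 Ptbp genes. They were chosen by symbol, with no measured value in the rule, and all 35 were found in the count tables. Acetylation of lysine 14 of histone H3 (H3K14ac) was mapped in neural stem and progenitor cells of mouse embryos (E14.5, cortex and ganglionic eminences) by sequencing immunoprecipitated chromatin (ChIP-seq). Wild-type (WT) cells were taken as differentiating cultures, grown on a laminin substrate in medium for neurons of the cortex (3 H3K14ac libraries), or as proliferating neurospheres, which are floating clusters of dividing cells (3 H3K14ac libraries). Each stage also had 1 input library (WT chromatin without immunoprecipitation), 1 library made with a non-specific IgG antibody, and 1 H3K14ac library from Hbo1 null cells. HBO1, encoded by Kat7, is an acetyltransferase that makes this mark, and the description of the study gives the null cells as lacking it. The label of each input carries the number of the first WT library of its stage, a link that no test used. The description names 4 WT foetuses, but no label gives the foetus or culture of a library. The spread behind the p-values is therefore that between libraries and may be partly technical.

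Heterogeneous nuclear ribonucleoproteins (hnRNPs) coat new transcripts and often repress the use of nearby exons, while SR proteins carry domains rich in serine and arginine, bind exonic enhancers and mostly promote exon use. PTBP1 is an hnRNP-type repressor of neuronal exons that is high in neural progenitors, and its relative PTBP2 takes over as progenitors become neurons. The genes of these families are widely expressed, and most start in CpG islands, stretches of DNA rich in the dinucleotide CpG. H3K14ac is a mark of active gene starts.

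The promoters of these genes were rich in CpG. RefSeq promoters (GRCm38.p6, 250 bases before to 50 after a start) were matched for 32 of the 35 genes, and not for Hnrnpll, Hnrnpul2 and Ptbp3. At the farthest upstream start listed, 30 of 32 windows (93.75%) had an observed over expected CpG ratio of at least 0.6 and a GC content of at least 50%, against 45.14% of 18458 genes in the tables. The count was 15 of 17 hnRNP and 11 of 11 SR promoters, with median GC contents of 63.33% and 69%. The exceptions were Hnrnpf and Hnrnpa1. Their promoters are shown because their counts stand apart below, beside those of the genes with the clearest differences. Capitals mark GGGCGG (the GC box bound by Sp1), CCAAT (the box bound by NF-Y) or CCGGAAG (the site bound by ETS factors), on either strand, and all sequences run from 5′ to 3′ along the strand of the gene.
Hnrnpf, farthest upstream start (chr6:117900090-117900389, plus strand): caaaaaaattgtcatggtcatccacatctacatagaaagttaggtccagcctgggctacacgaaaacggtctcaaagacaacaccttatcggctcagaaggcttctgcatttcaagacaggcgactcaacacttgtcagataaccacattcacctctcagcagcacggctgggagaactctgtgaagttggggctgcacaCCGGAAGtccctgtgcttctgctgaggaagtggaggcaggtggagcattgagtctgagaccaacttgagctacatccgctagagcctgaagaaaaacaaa
Hnrnpf, a later start (chr6:117907554-117907853, plus strand): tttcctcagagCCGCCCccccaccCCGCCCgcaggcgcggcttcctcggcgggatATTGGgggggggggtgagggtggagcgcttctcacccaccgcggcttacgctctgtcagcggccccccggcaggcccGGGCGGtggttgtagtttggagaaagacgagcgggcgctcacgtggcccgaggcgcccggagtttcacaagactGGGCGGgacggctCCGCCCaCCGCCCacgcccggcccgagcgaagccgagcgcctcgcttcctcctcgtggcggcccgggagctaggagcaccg
Hnrnpa1 (chr15:103240147-103240446, plus strand): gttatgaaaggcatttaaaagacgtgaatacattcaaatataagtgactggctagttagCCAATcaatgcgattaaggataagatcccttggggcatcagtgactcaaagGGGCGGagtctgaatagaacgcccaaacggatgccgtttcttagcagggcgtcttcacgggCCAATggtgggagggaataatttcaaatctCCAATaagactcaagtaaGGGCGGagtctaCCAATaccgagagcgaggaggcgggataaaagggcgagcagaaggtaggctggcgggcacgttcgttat
Hnrnpa2b1 (chr6:51469845-51470144, minus strand): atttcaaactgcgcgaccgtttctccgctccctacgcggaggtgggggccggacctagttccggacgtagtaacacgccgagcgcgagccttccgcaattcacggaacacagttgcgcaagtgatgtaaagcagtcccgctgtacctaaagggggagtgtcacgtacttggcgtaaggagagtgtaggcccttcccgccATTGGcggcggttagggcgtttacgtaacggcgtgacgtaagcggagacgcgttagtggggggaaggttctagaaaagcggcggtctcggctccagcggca
Hnrnpu (chr1:178337766-178338065, minus strand): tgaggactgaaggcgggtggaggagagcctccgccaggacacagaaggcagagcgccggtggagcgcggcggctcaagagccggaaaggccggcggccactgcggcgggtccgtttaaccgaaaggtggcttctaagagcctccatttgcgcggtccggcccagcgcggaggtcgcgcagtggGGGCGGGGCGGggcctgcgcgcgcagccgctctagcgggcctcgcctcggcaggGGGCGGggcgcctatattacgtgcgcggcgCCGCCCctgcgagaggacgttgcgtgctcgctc
Tra2b (chr16:22265956-22266255, minus strand): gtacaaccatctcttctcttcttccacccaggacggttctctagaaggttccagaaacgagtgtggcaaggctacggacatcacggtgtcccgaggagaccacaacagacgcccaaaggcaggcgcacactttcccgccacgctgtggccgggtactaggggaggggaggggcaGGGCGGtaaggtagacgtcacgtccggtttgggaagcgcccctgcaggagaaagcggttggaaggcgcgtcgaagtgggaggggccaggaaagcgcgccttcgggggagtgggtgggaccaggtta
Ptbp2 (chr3:119783339-119783638, minus strand): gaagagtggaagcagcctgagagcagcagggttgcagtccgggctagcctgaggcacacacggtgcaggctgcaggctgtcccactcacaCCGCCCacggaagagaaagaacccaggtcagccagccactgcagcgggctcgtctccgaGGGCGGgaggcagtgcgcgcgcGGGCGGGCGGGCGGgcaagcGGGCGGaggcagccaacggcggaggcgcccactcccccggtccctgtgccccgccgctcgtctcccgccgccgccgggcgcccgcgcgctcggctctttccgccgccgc

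The Hnrnpf window at the farthest upstream of its 4 listed starts held 7 CpG in 49.3% GC, a ratio of 0.384, while the later start shown held 37 CpG in 73.7% GC, a ratio of 0.909. Hnrnpa1 missed the criterion on GC content alone: it had 48.3% GC with 16 CpG, a ratio of 0.970, and 4 CCAAT boxes. The GC box was in 26 of 32 promoters, against 45.96% of all promoters of the same length. CCAAT was in 17 of 32, against 39.24%, and split as 11 of 17 hnRNP and 4 of 11 SR promoters. CCGGAAG was in 6 of 32, against 11.68%. Of the other motifs searched on both strands, the NRF1 site was in 0 of 32 promoters, against 1.295% of all, and TGACGTCA (the cyclic AMP response element) was in that of Tra2a alone, against 2.34%. AAGATGGC (bound by YY1) was in 2, those of Ptbp1 and Hnrnpul1, against 3.191%, and TATAAA (the TATA box) was in 4, against 13.09%. Starts of 10 genes lay within 1000 bases of a start of another gene, among them the pairs of Hnrnpa2b1 with Cbx3, Hnrnpa1 with Cbx5 and Hnrnpk with Rmi1, and counts near such starts can stem from either gene.

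**Figure D1:**
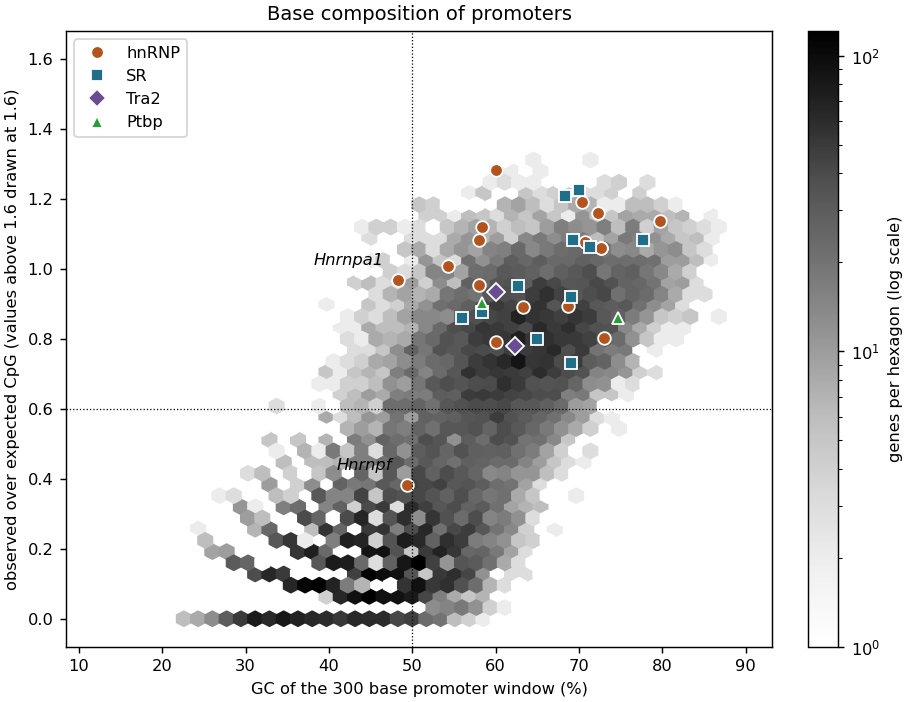
GC content (%) of the 300 base promoter windows on the x axis against observed over expected CpG on the y axis, at the farthest upstream RefSeq start. Grey hexagons count all genes of the tables on a log scale, coloured points are the 32 genes matched, and dotted lines mark 50% GC and a ratio of 0.6, which 30 of the 32 passed and Hnrnpf and Hnrnpa1 did not.

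Reads had been counted per gene in a window of 1000 bases from the transcription start (TSS window) and over the whole gene body. Gene body totals were 12549913 to 17074249 in differentiating and 3992697 to 7611239 in proliferating WT libraries, 2526252 and 2771713 in the IgG libraries, and only 320601 and 64071 in the differentiating and proliferating Hbo1 null libraries. TSS windows held 3.24% to 3.68% of the gene body total in differentiating and 4.56% to 4.90% in proliferating WT libraries, and 3.23% and 3.36% in their inputs. The summed counts of 5 Y chromosome genes set libraries apart. Relative to 1e6 gene body counts, the sum was 9.08, 9.94 and 209 in differentiating and 47.1, 8.77 and 8.93 in proliferating WT libraries, 6.57 to 7.80 in the inputs, and 46.8 to 228 in the IgG and null libraries. The third differentiating and the first proliferating WT library therefore differ in these genes from the others of their stage, and results are also given without them. The input that carries the number of this proliferating library was at 6.57, against 47.1 in the library. The 35 genes are all on autosomes. Of 10 neural stem and progenitor markers, 9 were higher than input, and their summed TSS windows were at 1.48 to 2.21 times input in differentiating and 2.74 to 3.98 times in proliferating WT libraries. The same sums were 1.10 to 1.74 and 1.34 to 1.54 times input for neuronal markers, of which 1 of 2 windows tested was higher than input. No microglial (4 tested), endothelial (4 tested) or blood (2 tested) marker window passed the test against input described below. Of all windows 11.6% were higher, so these few windows say little.

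H3K14ac was higher than input at the starts of 18 of these genes. In edgeR's quasi-likelihood test of the 6 WT against the 2 input libraries, with a term for stage, 18 of 33 TSS windows were higher in WT at an adjusted p under 0.05 and 0 were lower, while 31 of 33 had an unadjusted p under 0.05. Of all 21557 windows tested, 11.6% were higher and 0.881% lower, and of the 7738 with a CpG-rich start 19.9% were higher. An unadjusted p under 0.05 in edgeR was found for 5837 of the 21557. The median log2 difference of the genes was 1.09, against 0.53 over windows with a CpG-rich start and 0.25 over all windows. Hnrnpf and Srsf12 had a mean count below 10 and were not tested; Srsf12 averaged 0.938 times input in differentiating and 1.26 times in proliferating WT libraries. Each stage has 1 input, so the test assumes that inputs vary as WT libraries do. The differences depended on the proliferating input, at these genes and over all windows. Without it the median log2 difference over all windows was 0.11, and those of Hnrnpul2 (-0.018), Ptbp3 (-0.23) and Srsf5 (-0.063) turned negative.

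Among hnRNP genes 11 of 18 tested windows were higher than input, with a median log2 difference of 1.20. Values per library are given here as TSS window counts per 1e6 gene body counts (CPM). The largest difference was at Hnrnpk, whose product binds runs of C through KH domains. Its CPM was 2.87, 1.80 and 1.87 in differentiating WT libraries against 0.709 in their input, and 4.62, 8.01 and 5.91 in proliferating WT libraries against 1.43 in their input. Every WT library lay above the input of its stage, and log2 WT over input was 1.89 ± 0.43 (SE; edgeR adjusted p = 0.00124). Hnrnpu encodes a protein of the nuclear scaffold, also known as SAF-A. Its CPM was 3.43, 2.27 and 2.34 in differentiating WT libraries against 1.10 in input, and 5.50, 9.52 and 6.96 in proliferating ones against 1.68 (log2 1.72 ± 0.42, edgeR adjusted p = 0.00250).

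Hnrnpr, Hnrnpc, Hnrnpa0 and Hnrnph3 followed. Hnrnpr, a relative of the RNA-binding gene Syncrip, had 2.39, 1.33 and 1.87 CPM in differentiating WT libraries against 0.552 in input, and 4.18, 3.76 and 3.28 in proliferating ones against 1.18 (log2 1.68, edgeR adjusted p = 0.00251). Hnrnpc, whose product binds tracts of U, had 1.91, 1.64 and 2.05 CPM in differentiating WT libraries against 0.788 in input, and 2.86, 3.51 and 3.55 in proliferating ones against 0.927 (log2 1.55, edgeR adjusted p = 0.00466). At these genes too the WT libraries did not overlap with the input of their stage. Hnrnpa0 had 2.79, 1.56 and 2.46 CPM in differentiating WT libraries against 0.946 in input, and 4.40, 6.51 and 4.60 in proliferating ones against 1.43 (log2 1.57, edgeR adjusted p = 0.00492). Hnrnph3, of the group that binds runs of G, had 3.27, 1.96 and 2.23 CPM in differentiating WT libraries against 1.18 in input, and 4.18, 4.51 and 4.86 in proliferating ones against 1.18 (log2 1.49, edgeR adjusted p = 0.00693). The other hnRNP genes that passed were Hnrnpd (log2 1.33), Hnrnpul1 (1.33), Hnrnpll (1.31), Hnrnpab (1.09) and Hnrnpa3 (1.08). Hnrnpa2b1 had a log2 difference of 1.08 with an edgeR adjusted p of 0.0521, and Hnrnpa1 one of 1.00 with an adjusted p of 0.0589. Hnrnpm (1.00), Hnrnph1 (0.91), Hnrnpul2 (0.79), Hnrnpl (0.78) and Hnrnpdl (0.76) did not pass either.

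Among SR genes 4 of 10 tested windows were higher than input, with a median log2 difference of 1.03. Srsf1, the classic SR protein that binds exonic enhancers, had 1.51, 1.33 and 1.87 CPM in differentiating WT libraries against 0.788 in input, and 1.98, 4.76 and 4.07 in proliferating ones against 1.01. The first proliferating library was the lowest of its stage and still above the input (log2 1.45 ± 0.40, edgeR adjusted p = 0.00715). Srsf4 had 2.23, 1.88 and 2.17 CPM in differentiating WT libraries against 1.10 in input, and 4.40, 5.01 and 4.47 in proliferating ones against 1.18 (log2 1.45 ± 0.41, edgeR adjusted p = 0.00854). Srsf6 (log2 1.42) and Srsf3 (1.09), whose product also takes part in mRNA export, passed as well. Srsf2, another founding SR protein, did not: it had 1.99, 1.49 and 1.35 CPM in differentiating WT libraries against 1.18 in input, and 3.74, 1.75 and 3.28 in proliferating ones against 1.43 (log2 0.75, edgeR adjusted p = 0.166). Srsf10 (1.04), Srsf11 (1.02), Srsf5 (0.87), Srsf9 (0.83) and Srsf7 (0.79) had positive differences that did not pass.

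Tra2a and Tra2b, SR-like activators of exons with GAA repeats, were both higher than input. Tra2a had 2.07, 1.80 and 2.17 CPM in differentiating WT libraries against 0.630 in input, and 4.40, 3.51 and 5.52 in proliferating ones against 1.10 (log2 1.89 ± 0.43, edgeR adjusted p = 0.00112). Tra2b had a log2 difference of 1.23 (edgeR adjusted p = 0.0275). The Ptbp genes differed among themselves. Ptbp2 had the largest difference of all 33 windows, with 2.55, 1.33 and 1.93 CPM in differentiating WT libraries against 0.552 in input, and 2.20, 4.76 and 3.81 in proliferating ones against 0.842 (log2 1.95 ± 0.42, edgeR adjusted p = 0.000718). Ptbp1 had the smallest, with 2.31, 1.96 and 1.58 CPM in differentiating WT libraries against 1.34 in input, and 2.64, 2.25 and 2.50 in proliferating ones against 1.85. All its WT libraries were above input, but the log2 difference of 0.47 did not pass (edgeR adjusted p = 0.429), nor did that of Ptbp3 (0.56, edgeR adjusted p = 0.331).

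**Figure D2:**
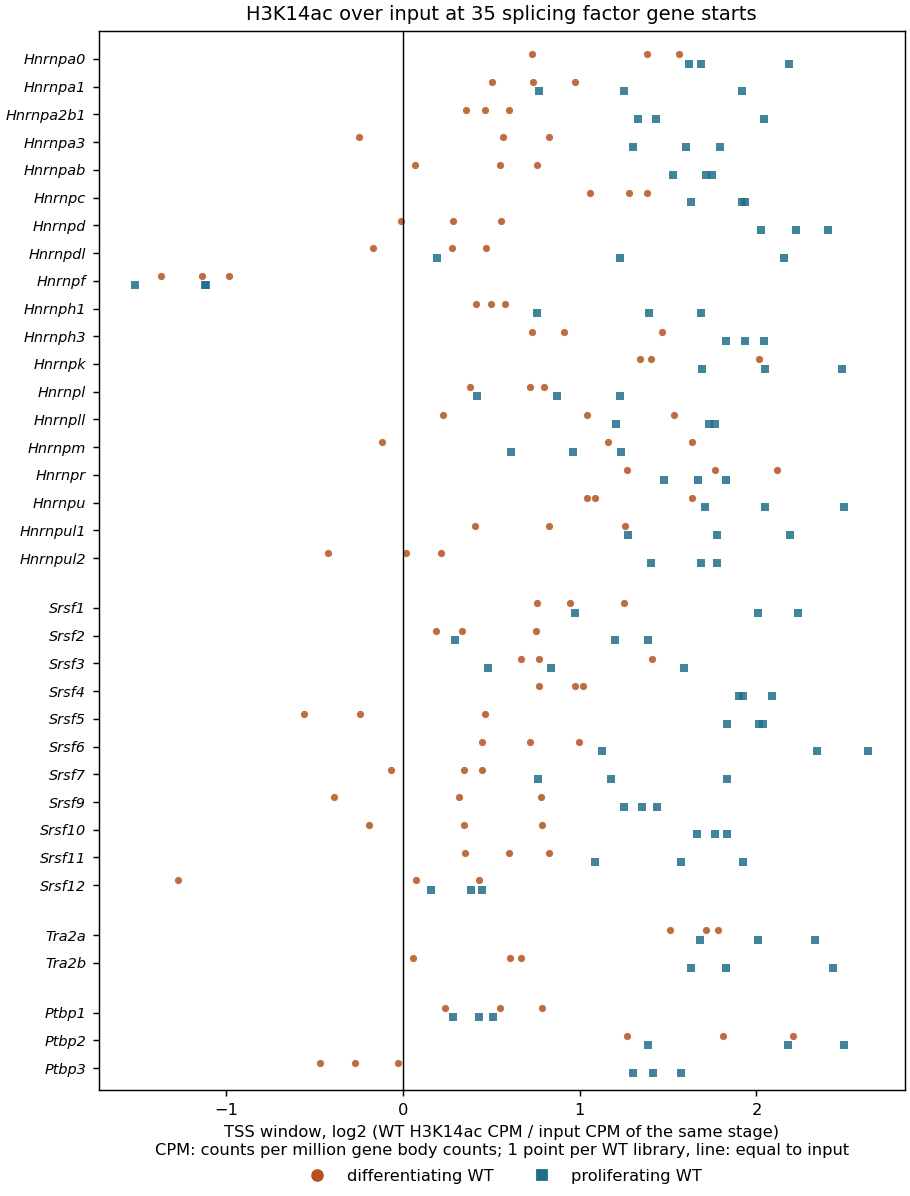
H3K14ac over input at the TSS window of each of the 35 genes, as log2 of WT CPM over the input of the same stage on the x axis, with 1 point per WT library. All 3 proliferating libraries lie right of the line at 0 for 34 genes and all 3 differentiating libraries for 23, and Hnrnpf lies left of it in all 6.

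In the proliferating stage all 3 WT libraries were above input at 34 of the 35 genes, against 46.7% of all windows, with a median ratio of 3.11 to input. In the differentiating stage this held for 23 of 35, against 33.3%, with a median ratio of 1.52. The stages were also tested apart, in a second fit with a mean for each stage of WT and input libraries. There 0 of 33 windows of these genes passed in differentiating cells (11 had an unadjusted p under 0.05). Of all 21557 windows only 0.0835% were higher, and 2125 had an unadjusted p under 0.05 in edgeR. In proliferating cells 27 of 33 were higher, against 17.7% of all windows; the 6 that did not pass were Hnrnpa1, Hnrnpl, Hnrnpm, Srsf2, Srsf3 and Ptbp1. The test of the difference between the stages, as an interaction, called 0 of 33 windows (7 at an unadjusted p under 0.05). It called 0.0278% of all 21557 windows in the lower direction, and 2247 had an unadjusted p under 0.05 in edgeR. The interaction was negative, that is smaller over input in differentiating cells, for 30 of 33 genes, with a median log2 of -0.89. Over all windows the median was -0.37, and 31.2% were positive.

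Hnrnpf was the one gene below input throughout. Its TSS window held 9, 7 and 11 counts in differentiating WT libraries against 18 in the input, and 3, 2 and 5 in proliferating WT libraries against 17. The ratio to input averaged 0.449 in differentiating and 0.423 in proliferating libraries. Without the filter on low counts it was lower than input (log2 -1.16, edgeR adjusted p = 0.0358). The length given for Hnrnpf in the tables equals its RefSeq span, so its window begins at the farthest upstream start, whose promoter was poor in CpG as shown above, and does not reach the later starts. No such agreement of lengths was found for 29 of the 35 genes, and their windows may begin at another start than the one shown. Over the whole gene body Hnrnpf did not differ from input (log2 0.10, edgeR adjusted p = 0.450).

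Against IgG, 4 of 33 windows were higher in WT and 0 lower, while of all 13158 windows 5.13% were higher and 0.205% lower. Of 6114 windows with a CpG-rich start 427 were higher. The 4 windows were those of Hnrnpu (log2 2.66 ± 0.65, edgeR adjusted p = 0.00710), Tra2b (2.55 ± 0.65, adjusted p = 0.0107), Ptbp2 (2.24 ± 0.71, adjusted p = 0.0399) and Hnrnpa0 (1.89 ± 0.62, adjusted p = 0.0453). The IgG values were 0.361 CPM in differentiating and 1.19 in proliferating cells for Hnrnpu, 1.08 and 0.396 for Tra2b, 0.361 and 0.792 for Ptbp2, and 1.08 and 0.792 for Hnrnpa0, each below every WT library of its stage given here. For Tra2b those were 2.63, 1.72 and 2.52 CPM in differentiating and 5.72, 10.0 and 6.57 CPM in proliferating cells. All 33 log2 differences were positive, as were 81.9% of those over all windows. An unadjusted p under 0.05 in edgeR was found for 19 of the 33 and for 3256 of the 13158. The median log2 difference was 1.24, against 0.85 over windows with a CpG-rich start and 0.67 over all windows. The comparison is weak: single IgG windows held at most 6 counts, and with TMM scaling no window of these genes passed, and 0.114% of all windows did. The comparisons with input and IgG share their WT libraries.

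Summed over the TSS windows of the 35 genes, WT signal was 1.58 ± 0.26 times input in differentiating and 3.00 ± 0.46 times in proliferating libraries (SD, n = 3 each), against 1.07 ± 0.07 and 1.42 ± 0.06 for all genes. The sums held 669 to 1082 counts per differentiating and 526 to 1063 per proliferating WT library. IgG sums were 0.872 times input in differentiating and 1.11 times in proliferating cells. The Hbo1 null libraries held 9 counts at these 35 windows in differentiating and 2 in proliferating cells, that is 0.707 times input (95% exact Poisson interval 0.323 to 1.34, counting error only) and 0.680 times (0.0823 to 2.46). Over all genes the null libraries were at 0.907 and 0.843 times input in the same order, which lie inside these intervals, and the IgG libraries at 0.899 and 0.995 times. For the 35 genes, the interval of the differentiating null library ends above the lowest differentiating WT value of 1.32, and that of the proliferating one ends below the lowest proliferating WT value of 2.52. With 1 null library per stage, this compares libraries and not genotypes.

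Summed signal over input was compared between hnRNP and SR genes. The sums were 1.68 ± 0.32 times input for hnRNP and 1.40 ± 0.19 times for SR genes in differentiating WT libraries, and 2.99 ± 0.52 and 2.97 ± 0.36 times in proliferating ones (SD, n = 3 each). The hnRNP value was above the SR value in all 3 differentiating libraries (2.02 against 1.52, 1.39 against 1.17 and 1.63 against 1.50), while in proliferating ones it was lower in 2 of 3 (2.47 against 2.58, 3.51 against 3.27 and 3.00 against 3.07). The mean count of an hnRNP window over that of an SR window was 1.08 to 1.32 in differentiating and 1.17 to 1.31 in proliferating WT libraries, against 0.993 in the differentiating and 1.22 in the proliferating input. The same ratio was 1.14 in the differentiating and 0.919 in the proliferating IgG library. The order of the families thus depends on the control library used. The 3 libraries of a stage are divided by the same control, so they do not agree independently. Relative to IgG the sums were 1.88 ± 0.35 for hnRNP and 1.79 ± 0.25 for SR genes in differentiating libraries, and 2.73 ± 0.47 and 2.04 ± 0.24 in proliferating ones. On that scale hnRNP was above SR in all 3 proliferating libraries (2.25 against 1.77, 3.20 against 2.24 and 2.74 against 2.10) and in 2 of 3 differentiating ones (2.25 against 1.95, 1.55 against 1.50 and 1.82 against 1.91). The IgG sums held only 53 and 73 counts for hnRNP and 27 and 46 for SR genes, in differentiating and proliferating cells. The SD does not hold their counting error. The null libraries held 7 and 1 counts at hnRNP windows and 0 and 0 at SR windows in differentiating and proliferating cells, where 6.85 and 1.69 counts for hnRNP and 3.99 and 0.799 counts for SR genes would match the share in input. The Tra2 sum was 1.88 ± 0.30 times input in differentiating and 4.04 ± 0.58 times in proliferating WT libraries, and the Ptbp sum 1.48 ± 0.24 and 2.40 ± 0.35 times.

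**Figure D3:**
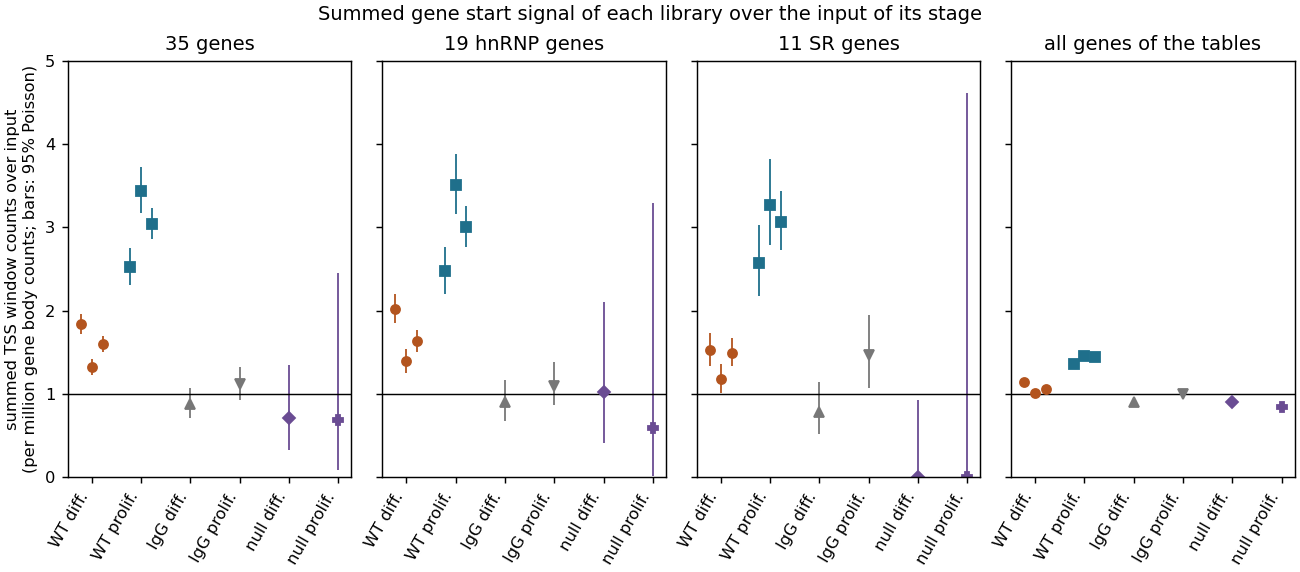
Summed TSS window counts of each library over the input of its stage, per 1e6 gene body counts, for the 35 genes, the hnRNP genes, the SR genes and all genes. Points are single libraries, bars 95% exact Poisson intervals of their counts without the error of the input, and the line at 1 marks input. Differentiating WT libraries sit at 1.32 to 1.84 and proliferating ones at 2.52 to 3.44 for the 35 genes.

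Between the stages, signal at 10 of these gene starts was lower in differentiating cells and at none higher. With counts scaled by TMM, which sets the bulk of windows equal, edgeR called 10 of 33 windows lower and 0 higher in differentiating than in proliferating WT cells, and 18 had an unadjusted p under 0.05. Over all 19477 windows 4.42% were lower and 2.04% higher, and of 7400 windows with a CpG-rich start 8.22% were lower. Of the 19477, 4430 had an unadjusted p under 0.05 in edgeR. The median log2 difference (differentiating over proliferating) was -0.62 for these genes, -0.26 for windows with a CpG-rich start and 0.03 for all windows. In bulk cultures fewer marked cells and less of the mark per cell cannot be told apart. The stage test does not use the inputs, so differences in input between the stages enter it. The input CPM of Hnrnpk was 0.709 in differentiating and 1.43 in proliferating cells, and that of Hnrnpd 0.867 and 0.758. Scaling to gene body totals moved the median of all windows to -0.47, with 25.7% called lower, and that of the 35 genes to -1.13, with 28 of 33 called lower; relative to all windows the genes lay 0.65 lower under TMM and 0.66 lower under gene body totals.

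Of the hnRNP genes 7 of 18 were lower in differentiating cells, with a median log2 difference of -0.51. Values below are TSS window counts per 1e6 after TMM scaling (TMM CPM), a scale other than that used against input. Hnrnpa2b1, whose product binds UAG motifs and takes part in the transport of RNA, had 66.5, 71.3 and 63.7 TMM CPM in differentiating cells against 134, 218 and 140.4 in proliferating cells. The groups did not overlap (log2 -1.25 ± 0.27, edgeR adjusted p = 0.00101). Its paralog Hnrnpa3 had 46.8, 31.4 and 63.7 TMM CPM in differentiating cells against 90.9, 127 and 109 in proliferating cells (log2 -1.15 ± 0.28, edgeR adjusted p = 0.00496). Hnrnpd encodes AUF1, which binds AU-rich elements and speeds mRNA decay. It had 39.4, 31.4 and 37.0 TMM CPM in differentiating cells against 74.9, 97.0 and 84.2 in proliferating cells (log2 -1.22 ± 0.30, edgeR adjusted p = 0.00534); a start of the gene 4930524J08Rik lies 3 bases from its own.

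Hnrnpk had 88.7, 65.6 and 65.7 TMM CPM in differentiating cells against 112, 194 and 140.4 in proliferating cells (log2 -0.997 ± 0.27, edgeR adjusted p = 0.0109). Hnrnpu had 106, 82.8 and 82.2 TMM CPM in differentiating cells against 134, 230.5 and 165 in proliferating cells (log2 -0.95 ± 0.27, edgeR adjusted p = 0.0156). In neither gene did the stages overlap. Hnrnpab had 64.0, 54.2 and 84.2 TMM CPM in differentiating cells against 112, 127 and 128 in proliferating cells (log2 -0.84, edgeR adjusted p = 0.0363). Hnrnpul2, a gene related to Hnrnpu, had 39.4, 34.2 and 51.3 TMM CPM in differentiating cells against 85.5, 91.0 and 68.6 in proliferating cells (log2 -0.89, edgeR adjusted p = 0.0485). Hnrnpa1, the best studied exon repressor of the family, stood out: it had 56.6, 57.1 and 76.0 TMM CPM in differentiating cells against 53.5, 84.9 and 37.4 in proliferating cells. These values overlapped widely, and the log2 difference of 0.25 ± 0.31 did not pass (edgeR adjusted p = 0.663); it was -0.27 with gene body totals. Hnrnpa1 has processed copies elsewhere in the genome, and how the authors counted reads that align to several places is not given in the sources used here. The other 10 hnRNP genes tested had log2 differences of -0.24 to -0.64, none of which passed.

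Only Srsf5 passed among 10 SR genes, although their median log2 difference was -0.65. An unadjusted p under 0.05 in edgeR was found for 7 of the 10, against 4430 of all 19477 windows. Srsf5 had 73.9, 42.8 and 51.3 TMM CPM in differentiating cells against 118, 115 and 99.8 in proliferating cells, without overlap (log2 -0.95 ± 0.28, edgeR adjusted p = 0.0209). Srsf1 had 46.8, 48.5 and 65.7 TMM CPM in differentiating cells against 48.1, 115 and 96.7 in proliferating cells, where the first library lay among the differentiating ones (log2 -0.68, edgeR adjusted p = 0.129). Srsf2 overlapped too, with 61.6, 54.2 and 47.2 TMM CPM in differentiating cells against 90.9, 42.5 and 78.0 in proliferating cells (log2 -0.43, edgeR adjusted p = 0.394). Srsf3 (-0.81), Srsf7 (-0.75), Srsf10 (-0.72), Srsf4 (-0.62), Srsf6 (-0.59), Srsf9 (-0.33) and Srsf11 (-0.15) did not pass. With gene body totals 15 of 18 hnRNP and 9 of 10 SR windows were called lower.

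Tra2b had 81.3, 62.8 and 88.3 TMM CPM in differentiating cells against 139, 243 and 156 in proliferating cells, without overlap (log2 -1.16 ± 0.27, edgeR adjusted p = 0.00228). Tra2a had a log2 difference of -0.69 that did not pass (edgeR adjusted p = 0.0974). The Ptbp genes again differed among themselves. Ptbp3 had 44.3, 45.7 and 59.6 TMM CPM in differentiating cells against 85.5, 103 and 90.5 in proliferating cells (log2 -0.86 ± 0.29, edgeR adjusted p = 0.0449). Ptbp1, the progenitor repressor, had 71.4, 71.3 and 55.5 TMM CPM in differentiating cells against 64.2, 54.6 and 59.3 in proliferating cells, and Ptbp2, its neuronal relative, had 78.8, 48.5 and 67.8 against 53.5, 115 and 90.5. Both overlapped between the stages, and log2 differences of 0.13 ± 0.30 for Ptbp1 (edgeR adjusted p = 0.823) and -0.39 ± 0.28 for Ptbp2 (edgeR adjusted p = 0.419) did not pass.

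**Figure D4:**
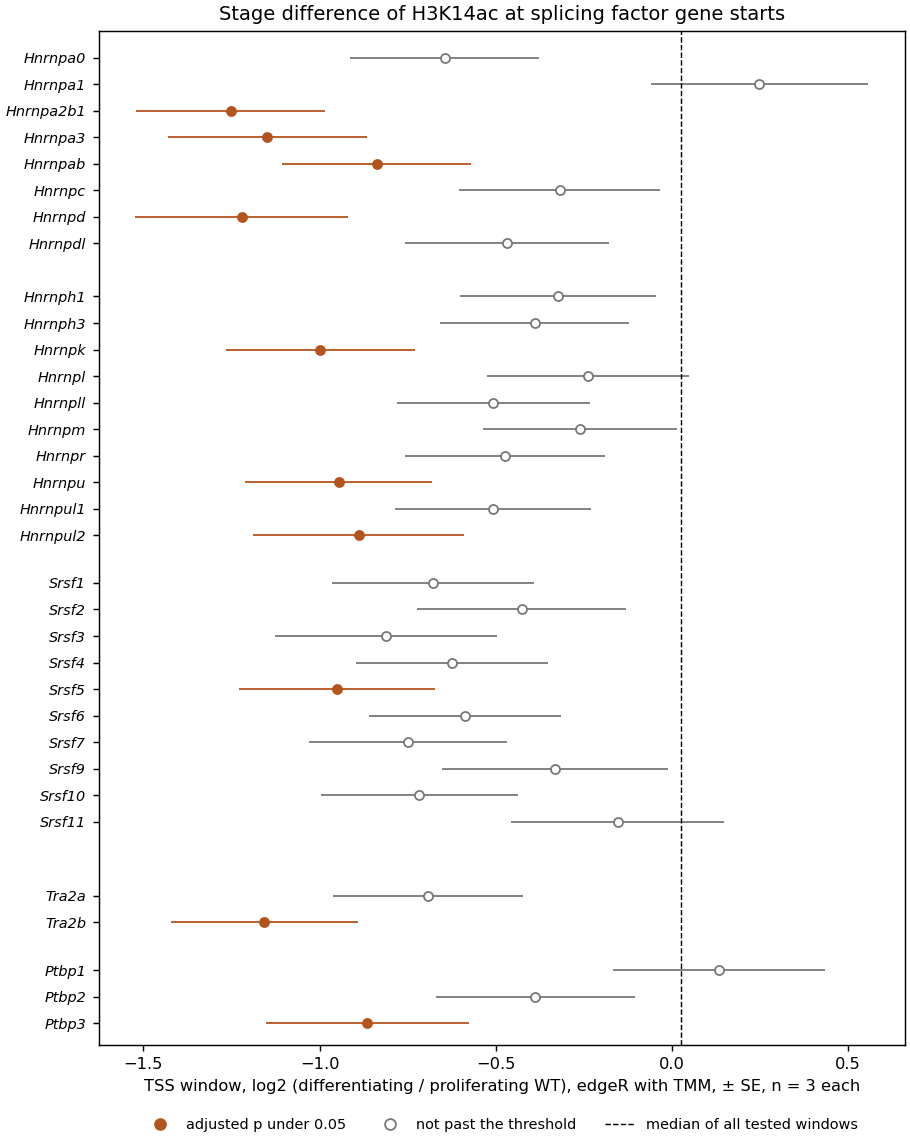
Log2 difference of TSS window counts between differentiating and proliferating WT cells (x axis, edgeR with TMM, ± SE, n = 3 each) for the 33 genes tested. Filled points passed an adjusted p under 0.05, and the dashed line marks the median of all windows, 0.03: 31 of 33 genes lie below 0, and Hnrnpa1 and Ptbp1 above.

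The stage calls depended on single libraries, and the number of calls over all windows moved too. Hnrnpa2b1 and Tra2b kept their call when each of the 6 libraries was left out in turn, with adjusted p up to 0.0231 and 0.0279, and Hnrnpd lost it in 1 of 6 (edgeR adjusted p = 0.0504). Without the third differentiating library, which stood apart in Y chromosome counts, 4 of these genes passed: Hnrnpa2b1, Hnrnpa3, Hnrnpd and Tra2b. Over all windows 284 of 15754 were then lower, against 860 of 19477 with all libraries. Without the first proliferating library, which also stood apart, 13 passed, among them Srsf1, Srsf3, Srsf6 and Srsf7 in addition to Srsf5. Over all windows 992 of 21225 were then lower. The count of these genes was 3 without the second differentiating library (Hnrnpa2b1, Hnrnpd and Tra2b), 5 without the second proliferating library (Hnrnpa2b1, Hnrnpa3, Hnrnpd, Srsf5 and Tra2b) and 2 without the third proliferating library (Hnrnpa2b1 and Tra2b). In the same order, 371 of 18064, 520 of 21702 and 255 of 20107 of all windows were lower. Against input, 14 of these genes passed without the third differentiating and 16 without the first proliferating library, against 18 with all. In the same order, 2063 of 19620, 2238 of 22813 and 2507 of 21557 of all windows were higher.

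WT counts of these genes were denser at the starts than in the rest of the genes. Counts per kb in the TSS windows over those in the rest of the same genes were 2.29, 1.53 and 1.79 in differentiating WT libraries and 4.43, 4.60 and 4.32 in proliferating ones, against 1.26 in the differentiating and 1.47 in the proliferating input. For hnRNP genes this density ratio averaged 1.96 ± 0.44 in differentiating and 4.63 ± 0.29 in proliferating WT libraries, for SR genes 1.69 ± 0.30 and 3.70 ± 0.15, and for all genes 1.29 ± 0.12 and 1.92 ± 0.04 (SD, n = 3 each). The stages did not overlap in any of these sets. Outside the TSS windows the summed counts of the 35 genes were 1.07 ± 0.06 times input in differentiating and 0.994 ± 0.138 times in proliferating WT libraries.

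**Figure D5:**
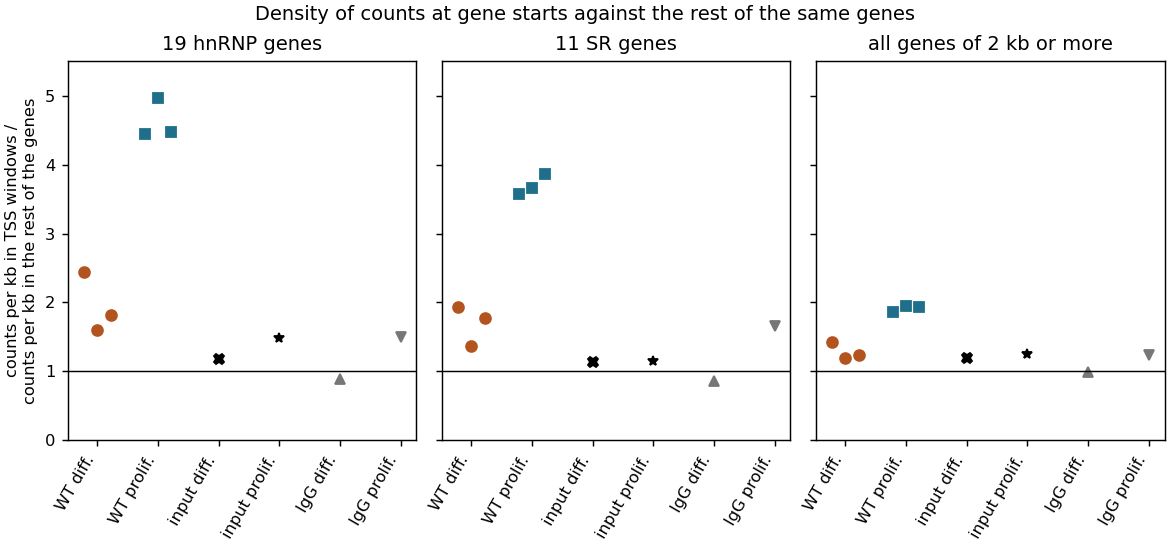
Counts per kb in the TSS windows over counts per kb in the rest of the same genes, for hnRNP genes, SR genes and all genes whose body is at least 1 kb longer than the window. Points are single libraries and the line at 1 marks equal density: proliferating WT libraries lie at 3.58 to 4.96 for the splicing families, above their input and IgG libraries.

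Over whole gene bodies 11 of 35 genes were higher and 2 lower than input, against 8.43% and 21.3% of 24848 gene bodies. The higher ones were Hnrnpa0 (log2 1.09), Srsf1 (0.99), Hnrnpu (0.79), Hnrnpk (0.74), Hnrnpa2b1 (0.68), Srsf2 (0.67), Ptbp2 (0.63), Tra2b (0.62), Hnrnph1 (0.59), Hnrnph3 (0.52) and Hnrnpd (0.40), and the lower ones Hnrnpul1 (-0.50) and Srsf4 (-0.30). With the TSS window subtracted, which was tried after the data were seen, 7 were higher (Srsf1, Ptbp2, Hnrnpu, Hnrnph1, Tra2b, Hnrnpa2b1 and Hnrnpk) and 5 lower (Hnrnpul1, Srsf9, Ptbp1, Hnrnpl and Srsf4), against 8.51% and 29.4% of all genes. Srsf1 then had a log2 difference of 0.81 (edgeR adjusted p = 0.00846) and Ptbp2 one of 0.58 (edgeR adjusted p = 0.00912). Between the stages 0 of 35 gene bodies passed in edgeR (7 at an unadjusted p under 0.05) or in DESeq2, while edgeR called 0.126% of all bodies lower and 0.0366% higher. An unadjusted p under 0.05 in edgeR was found for 2756 of all 24564 bodies. Without the first proliferating library Hnrnpu passed as lower in differentiating cells (log2 -0.83 ± 0.11, edgeR adjusted p = 0.0255). Over all bodies 53 of 24815 were then lower, against 31 of 24564 with all libraries.

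Other splicing genes were read from 3 lists. The share of all windows was 4.42% lower between the stages (8.22% of those with a CpG-rich start), and 11.6% higher (19.9%) than input. Between the stages 4430 of all 19477 windows had an unadjusted p under 0.05 in edgeR. Of the core spliceosome, 4 of 36 windows (11.1%) were lower in differentiating than in proliferating cells: those of the RNA helicases Ddx17 (log2 -1.18, edgeR adjusted p = 0.00233) and Ddx5 (-1.07), of Snrpb (-0.97), which encodes an Sm protein, and of the branch point binding factor Sf1 (-0.94), with a list median of -0.24. Against input 6 of 36 (16.7%) were higher, led by Prpf3 (log2 1.88), Ddx17 (1.49), Ddx5 (1.49) and Snrpb (1.45), with a list median of 0.47. Of 14 kinases, importers and relatives of SR proteins 0 passed between the stages (3 at an unadjusted p under 0.05 in edgeR), while 4 (28.6%) were higher than input: the SR kinase Clk1 (log2 1.59), Pnn (1.16), the SR importer Tnpo3 (1.10) and Srrm2 (1.06). Of other splicing regulators, 1 of 28 (3.57%) was lower between the stages, Syncrip (log2 -0.83, edgeR adjusted p = 0.0485), and 11 of 29 (37.9%) were higher and 1 lower than input, led by Ewsr1 (1.93), Nova1 (1.52), a neuronal splicing regulator, Tia1 (1.46) and Tardbp (1.41). Against IgG only Ddx5 of the core list passed (log2 2.18, edgeR adjusted p = 0.0206), which is 2.94% of 34 tested, against 5.13% of all windows. The medians of the other 2 lists between the stages were -0.18 and -0.44, and against input 0.84 and 0.83.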

How the data were processed

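The authors deposited raw counts, as read counts per gene in 2 tables (TSS windows of 1000 bases and gene bodies) for 12 libraries; 24 files of single libraries held the same values. Per the submitters' processing notes, featureCounts was used with the mm10 build; the aligner and the versions are not given in the sources used here. Of 27095 gene IDs, 25204 matched a RefSeq symbol and 1891 did not. The TSS window is part of the gene body, which ties the tables to each other.

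Tests covered all genes and used the two-sided quasi-likelihood test of edgeR 4.0.16 under R 4.3.3, with p-values adjusted by Benjamini-Hochberg over all genes tested and a threshold of 0.05. A gene entered a fit when its counts averaged at least 10 over the libraries used. The stage test used TMM factors. Tests against input or IgG used gene body totals as library sizes and a stage term. Tests by stage, and of the difference between the stages, used a mean for each group in place of the stage term. DESeq2 1.42.0 was an alternative. The stage and input fits of TSS windows were run on simulated counts with known changes. All simulated libraries varied alike, so this cannot check the assumption that inputs vary as WT libraries do. Exact Poisson intervals and the SD of 3 libraries describe the WT, IgG or null libraries only. Ratios to input or IgG divide by 1 control library per stage, whose own error they do not hold. No pairing of the WT libraries by number was seen: same-numbered libraries deviated from their group means with r of -0.0119, -0.0330 and 0.00403 in TSS windows. Over gene bodies r was -0.122, 0.199 and -0.193, and it was -0.296 to 0.274 for libraries of unlike number. Counts in TSS windows are low, so this cannot exclude a pairing.

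The 35 genes and the other lists were chosen with earlier results of these data known. All 35 are accounted for. Values per library are given for those past the threshold in a TSS window test, at most 10 per comparison by adjusted p, and always for Ptbp1, Ptbp2, Srsf1, Srsf2, Hnrnpk, Hnrnpa2b1 and Hnrnpu. Of the other lists at most 4 genes per comparison are named. Hnrnpa1, Hnrnpf and Srsf12 are described beyond this rule, after their values were seen.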

Additional observations from a re-analysis of the deposited data

How the results depend on the processing

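Left out 1 at a time, the WT libraries moved the number of these genes called lower in differentiating cells between 2 and 13, around 10 with all libraries; it was 7 in DESeq2 and 10 without the count filter. Scaling to gene body totals gave 28. Over all windows the count lower was 860 with all libraries and 255 to 992 with WT libraries left out. It was 519 in DESeq2, 1057 without the filter and 4996 with gene body totals. Over gene bodies the range for these genes was 0 to 1, and that for all gene bodies was 0 to 53, around 31 with all libraries. A replicate block, for which no pairing by number was seen, gave 7 of these genes and 495 windows lower and 266 higher over all genes, against 860 and 397. Against input at TSS windows the count higher was 0 for differentiating cells alone and 0 to 27 with libraries left out, 14 in DESeq2 and 15 with TMM, and the count lower was 1 (Hnrnpf) without the filter. Over gene bodies against input the count higher was 0 for differentiating cells alone, 7 with the TSS window subtracted (an alternative chosen after seeing the data) and 9 to 15 with WT libraries left out. The count lower was 1 in DESeq2, 1 with TMM, 0 for differentiating and 1 for proliferating cells alone. It was 5 with the window subtracted and 2 to 3 with WT libraries left out. Against IgG at TSS windows the count higher was 0 in DESeq2, 0 with TMM, 0 for differentiating cells alone, 2 without the filter and 2 to 6 with WT libraries left out. Over all TSS windows 2507 were higher than input, 1074 in DESeq2, 1394 with TMM and 1546 to 2774 with WT libraries left out. Against IgG 675 of all windows were higher, 1 in DESeq2, 15 with TMM and 420 to 1006 with WT libraries left out. With IgG in place of input the SR sum was 1.79 in differentiating and 2.04 in proliferating libraries. Signs turned for genes that had not passed. Against input, differentiating cells alone gave log2 differences of -0.018 for Hnrnpul2, -0.23 for Ptbp3 and -0.063 for Srsf5. With single libraries left out the ranges were -0.018 to 1.58, -0.23 to 1.42 and -0.063 to 1.94, each lowest without the proliferating input. Between the stages, gene body totals gave -0.27 for Hnrnpa1 and -0.36 for Ptbp1, and with libraries left out the ranges were -0.10 to 0.52 for Hnrnpa1, -0.42 to 0.0083 for Hnrnpl, -0.51 to 0.047 for Hnrnpm and -0.45 to 0.031 for Srsf11. The cause was not tested. TSS windows of these genes held 2 to 53 counts per WT library, which limits the difference that could be called.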
